A study of Homo sapiens with 6 samples.

Results

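The genes described here are PARP9, DTX3L, PARP10, PARP12, PARP14, ZC3HAV1 and PARP4, with PARP1 and PARP2. The first 7 are ADP-ribosyltransferase genes and partners grouped here as linked to interferon. PARP1 and PARP2 are relatives not known for that link. All were chosen by name, with earlier results of these data known. They are 9 of the 11387 genes listed, and all 9 were among the 10475 genes tested. RNA was sequenced from a human cell line labelled 92.1, with the cell type given as ocular melanoma cells. There were 3 libraries labelled shALKBH3, whose genotype is given as ALKBH3 knockdown. Another 3 libraries were labelled NC, and their genotype is given as WT. Both groups were grown in the same medium with fetal bovine serum and antibiotics. The labels do not say whether NC cells carry a hairpin, whether the knockdown line is a clone or a pool, or whether the 3 libraries of a group are separate cultures. The p-values therefore speak only to the spread among these libraries, which may be technical. The comparison asks how transcript levels in these cells differ once ALKBH3, an RNA and DNA demethylase, is depleted.

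PARP enzymes move ADP-ribose from NAD onto proteins or nucleic acids. PARP1 and PARP2 build long chains of it at DNA breaks, while most other family members attach a single unit or are inactive. Interferon, the secreted signal of antiviral defence, activates transcription factors that bind short elements in promoters of several PARP genes. PARP9 pairs with the ubiquitin ligase DTX3L, PARP14 reads and writes ADP-ribose in immune signalling, ZC3HAV1 (also called ZAP or PARP13) binds CpG-rich viral RNA and directs its decay, and PARP10 and PARP12 have been tied to antiviral responses. PARP4 is a component of vault particles. It is counted with the interferon-linked genes by the grouping used here, and no interferon link of PARP4 is described.

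The promoters of the PARP9 and DTX3L pair, PARP14 and PARP12 are shown because each holds an element of the kind that interferon-activated factors bind. The RefSeq promoter windows (GRCh38.p14, 250 bases before to 50 after each start) covered 7 of the 9 genes in 8 windows, and PARP4 and PARP10 were not matched. The windows were searched on both strands for GAAANNGAA, 9 letters of the core of the interferon-stimulated response element (ISRE), and for TTCNNNGAA, the core of the gamma-activated site (GAS). Capitals mark the ISRE core, each stretch runs 5′ to 3′ on the strand of the gene named, and the positions are chr3:122564302-122564370 on the plus strand for DTX3L, chr3:122680780-122680848 on the plus strand for PARP14 and chr7:140062922-140062990 on the minus strand for PARP12.
DTX3L: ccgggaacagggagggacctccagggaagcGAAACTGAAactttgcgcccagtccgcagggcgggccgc
PARP14: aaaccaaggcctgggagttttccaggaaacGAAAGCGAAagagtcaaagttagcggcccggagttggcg
PARP12: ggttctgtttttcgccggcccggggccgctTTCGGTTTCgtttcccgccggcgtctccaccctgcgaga

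PARP9 and DTX3L lie head to head on chromosome 3, and 38 bases separate the DTX3L start from the nearer PARP9 start. The single ISRE core match GAAACTGAA therefore lies in the windows of both genes, from -6 to 3 bases of the DTX3L start and from -40 to -32 of the PARP9 start. In PARP14 the match GAAAGCGAA lies from -29 to -21, and a GAS core match, TTCCAGGAA, lies from -40 to -32 without overlapping it. PARP12 has its match on the opposite strand from -9 to -1. Across all 35116 promoter windows in the table, 8.11% hold the ISRE core and 7.66% the GAS core. ZC3HAV1 and PARP2 hold only a GAS core match, at -104 to -96 and -154 to -146, and PARP1 and the farther PARP9 start hold no match to either set of letters. A match is a description of these letters and not evidence of binding.

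**Figure D1:**
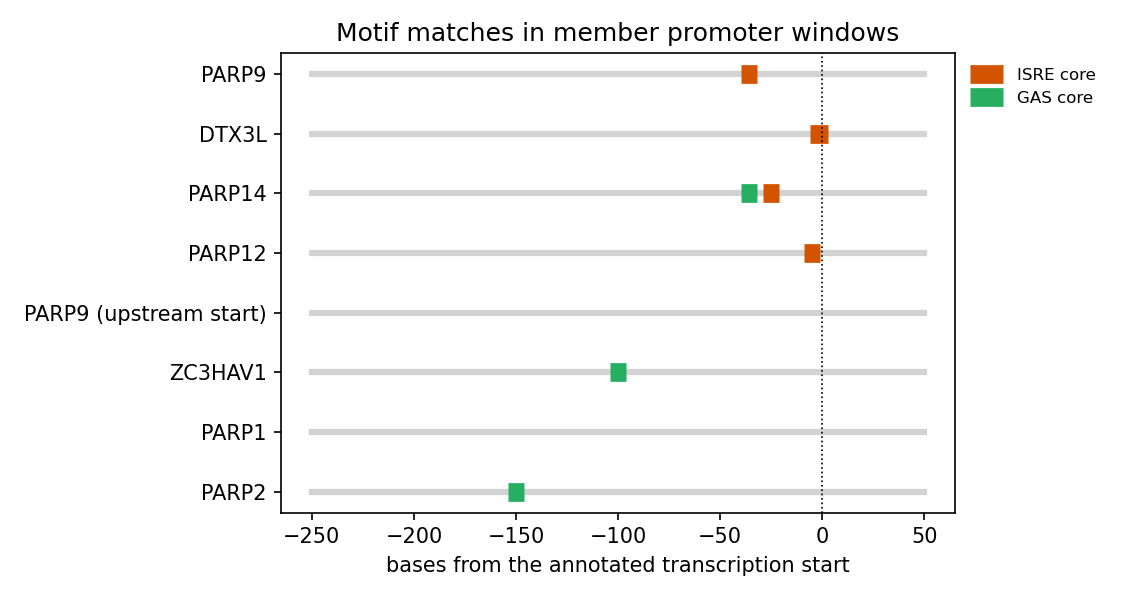
Positions of ISRE core and GAS core matches in the promoter windows, in bases from the annotated transcription start (dotted line). Each grey bar is a window of 250 bases before to 50 after the start. PARP9, DTX3L, PARP14 and PARP12 have an ISRE core match within 40 bases of the start.

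Values are FPKM, fragments scaled to transcript length and library size as the authors deposited them, summed here over the listed transcripts of each gene. Differences are of log2(FPKM + 1), shALKBH3 minus NC, tested with limma over all 10475 genes with Benjamini-Hochberg adjustment and a threshold of 0.05. The added 1 makes the differences of weakly expressed genes smaller than their true fold. Of these genes 134 (1.28%) rose and 50 (0.477%) fell, and leaving out any single library lowered the total of 184 (1.76%) to between 48 and 109. Listed FPKM summed to between 326875 and 333987 in shALKBH3 libraries and to between 340950 and 361268 in NC libraries. ALKBH3 itself was at 3.29, 3.60 and 4.24 FPKM in shALKBH3 libraries, against 10.5, 10.6 and 9.19 FPKM in NC libraries (log2 -1.24, limma adjusted p = 0.0079). The ALKBH3 call held under 12 of 15 alternatives. It was lost without NC replicate 1 (log2 -1.21, adjusted p = 0.051), with its top transcript alone (log2 -1.24, adjusted p = 0.063) and with a replicate block. Of 8 melanocyte markers only MITF has a listed transcript (10.3 to 14.0 FPKM in shALKBH3 and 3.29 to 9.53 FPKM in NC). MLANA, PMEL, TYR, TYRP1, DCT, SOX10 and S100B have none. In each listed transcript the higher group mean is at least 0.5 FPKM, and why these markers are unlisted is not given. The markers thus give little to bear out the melanoma label of the line, whose identity was not tested. No marker of the keratinocyte or other epithelium list or of the endothelial list is listed. Among 4 immune cell markers CD68 alone is listed, at 33.8 to 37.4 FPKM in shALKBH3 and 14.7 to 18.9 FPKM in NC (limma adjusted p = 0.010), and 3 of 4 fibroblast markers sum to 23.8 to 29.1 FPKM in shALKBH3 and 23.2 to 34.4 FPKM in NC; their part in the results below was not tested.

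Of the 7 interferon-linked genes, PARP9, DTX3L and ZC3HAV1 rose in the knockdown, 0 fell and 4 did not pass the test. The shares over all tested genes were 1.28% higher and 0.477% lower. ZC3HAV1 lost its call when any 1 library was left out. As a description of genes chosen with results known, all 7 differences were positive, as were 5099 of all 10475 genes tested. The median log2 difference was 0.70 beside -0.01 over all genes tested. In 6 of the 7, every shALKBH3 library lay above every NC library, a separation that 12.9% of all tested genes show in that direction and 12% in the other. In the same 6 genes the unadjusted p was under 0.05, as for 8.98% of all tested genes in that direction and 8.15% in the other. PARP1 and PARP2 had log2 differences of 0.05 and -0.02. The libraries of PARP1 were separated in the same direction, and those of PARP2 overlapped. Because these are bulk samples, more cells expressing a gene and more RNA per cell cannot be told apart.

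PARP9 (ENSG00000138496, chromosome 3) encodes the partner that binds DTX3L and has macrodomains that read ADP-ribose. It was at 84.1, 82.0 and 89.2 FPKM in shALKBH3 replicates 1, 2 and 3, against 30.5, 32.1 and 28.1 FPKM in NC replicates 1, 2 and 3. The groups are far apart compared with the spread inside either of them. The means were 85.1 ± 3.70 FPKM in shALKBH3 and 30.2 ± 1.99 FPKM in NC (SD, 3 libraries each), a 2.82-fold level, and PARP9 rose by 1.47 on the log2 scale (SE 0.080, limma adjusted p = 0.0017). It ranked 44th from the top of the 10475 genes by log2 difference and kept its call when each library was left out in turn (adjusted p from 0.0087 to 0.024).

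DTX3L (ENSG00000163840, chromosome 3) encodes the ubiquitin ligase of the pair. It was at 48.0, 49.3 and 47.8 FPKM in shALKBH3 replicates 1, 2 and 3, against 21.7, 24.0 and 18.8 FPKM in NC replicates 1, 2 and 3. The knockdown libraries lie within 2 FPKM of each other and above every control. The mean was 48.4 ± 0.778 FPKM in shALKBH3 and 21.5 ± 2.57 FPKM in NC (SD, 3 libraries each), and DTX3L rose by 1.14 (log2, SE 0.101, limma adjusted p = 0.0062). The call held without each library in turn (adjusted p from 0.015 to 0.047).

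The proportion of the partners was also compared in each library. The log2 ratio of DTX3L to PARP9, each taken as FPKM + 1, was -0.80, -0.72 and -0.89 in shALKBH3 replicates 1, 2 and 3, against -0.47, -0.41 and -0.55 in NC replicates 1, 2 and 3. Each knockdown library lay below each control, a difference of -0.33 (exact two-sided permutation p = 0.10, the smallest that 3 against 3 libraries allow). How often other gene pairs separate in this way was not computed. The exons of DTX3L-201, the listed DTX3L transcript, share 217 bases (3.7%) with PARP9 exons on the opposite strand, and whether the authors' estimates used the strand is not given in the sources used here. Fragments from that stretch cannot be assigned to one gene without it. The stretch is 5 bases (0.2%) of PARP9-204, the main PARP9 transcript.

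Among 4 listed PARP9 transcripts, PARP9-204 (ENST00000471785, 3040 nucleotides, 819 residues) carried most of the signal. It was at 72.1, 64.6 and 77.0 FPKM in shALKBH3 replicates 1, 2 and 3, against 24.2, 26.2 and 23.5 FPKM in NC replicates 1, 2 and 3, which is 78.8% to 86.3% of the gene sum in shALKBH3 and 79.5% to 83.7% in NC. The shares overlap between the groups. Tested among 19698 single transcripts, of which 93 (0.472%) passed and 0.35% were higher, PARP9-204 rose by 1.49 (limma adjusted p = 0.010). PARP9-202, with a longer transcript and 710 residues, was at 9.41, 15.7 and 9.49 FPKM in shALKBH3 replicates 1, 2 and 3, against 5.60, 5.05 and 3.80 FPKM in NC replicates 1, 2 and 3 (log2 1.08, adjusted p = 0.25). DTX3L-201 (740 residues) was the other of the 2 transcripts called among 17 tested for the 9 genes (limma adjusted p = 0.026). Before adjustment, 7 of the 17 passed 0.05 as higher and 0 as lower, a level passed by 4.99% of all tested transcripts in the higher direction and 4.75% in the lower. For the 7 interferon-linked genes 9 of 13 tested transcripts had every shALKBH3 library above every NC library, against 9.08% of all tested transcripts in that direction and 8.9% in the other. DTX3L-201, PARP14-202, PARP4-201 and PARP12-206 are the only listed transcripts of their genes, and the other transcripts are parts of the gene sums. The transcript counts therefore repeat the gene values and are not further evidence.

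PARP14 (ENSG00000173193, chromosome 3), a large enzyme with macrodomains, was at 39.8, 20.7 and 18.4 FPKM in shALKBH3 replicates 1, 2 and 3, against 6.94, 10.9 and 11.6 FPKM in NC replicates 1, 2 and 3. Each knockdown library is above each control, and replicate 1 stands well above the other knockdown libraries. The mean was 26.3 ± 11.7 FPKM in shALKBH3 and 9.81 ± 2.52 FPKM in NC (SD, 3 libraries each). PARP14 did not pass the test in spite of a log2 difference of 1.28, the second largest of the 9 genes (95% interval 0.50 to 2.07, limma adjusted p = 0.14). Without shALKBH3 replicate 1 the difference was 0.95 (adjusted p = 0.16). PARP14 has 1 listed transcript, PARP14-202, of 7915 nucleotides and 1801 residues, the longest transcript among the listed ones of the 9 genes.

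**Figure D2:**
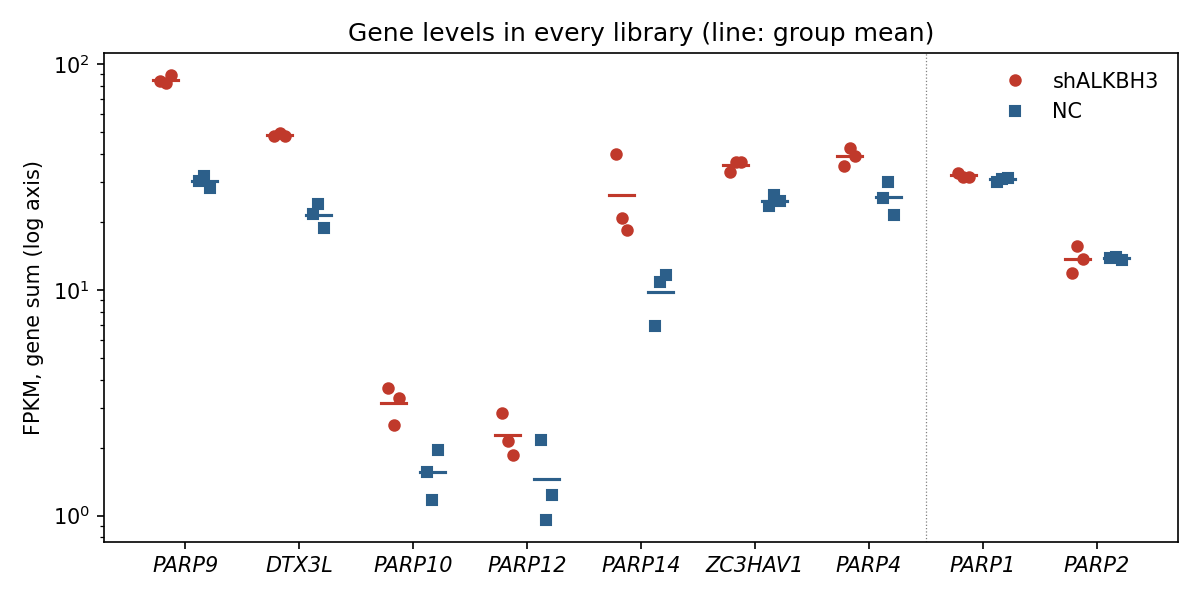
FPKM of each gene (log axis) in the 3 shALKBH3 libraries (red circles, left) and the 3 NC libraries (blue squares, right), with lines at the group means; the dotted line sets off PARP1 and PARP2. PARP9 sits between 82.0 and 89.2 FPKM in shALKBH3 and between 28.1 and 32.1 FPKM in NC, while PARP1 sits between 31.6 and 33.0 FPKM in shALKBH3 and between 30.1 and 31.3 FPKM in NC.

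ZC3HAV1 (ENSG00000105939, chromosome 7), the antiviral RNA-binding protein that lacks transferase activity, was at 33.4, 36.7 and 36.7 FPKM in shALKBH3 replicates 1, 2 and 3, against 23.4, 26.3 and 24.7 FPKM in NC replicates 1, 2 and 3. The groups do not overlap, and the gap is smaller than that of PARP9 or DTX3L. The mean was 35.6 ± 1.90 FPKM in shALKBH3 and 24.8 ± 1.42 FPKM in NC (SD, 3 libraries each), and ZC3HAV1 rose by 0.51 (log2, SE 0.083, limma adjusted p = 0.047). This call lies at the edge of the threshold: leaving out any 1 of the 6 libraries gave adjusted p-values from 0.079 to 0.19, and a correction for transcript length and GC content gave a log2 difference of 0.36 (adjusted p = 0.080).

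ZC3HAV1 is made as a long protein with a PARP-like domain and a short one without it. The long form ZC3HAV1-201 (ENST00000242351, 902 residues) was at 28.9, 32.4 and 32.5 FPKM in shALKBH3 replicates 1, 2 and 3, against 20.9, 22.9 and 21.7 FPKM in NC replicates 1, 2 and 3. It made up 86.6% to 88.7% of the gene sum in shALKBH3 and 87.1% to 89.2% in NC. The short form ZC3HAV1-204 (ENST00000471652, 699 residues) was at 0.809, 1.42 and 1.48 FPKM in shALKBH3 replicates 1, 2 and 3, against 1.46, 1.09 and 0.988 FPKM in NC replicates 1, 2 and 3. Libraries overlap for the short form and do not for the long form, whose single-transcript test did not pass (log2 0.50, limma adjusted p = 0.16). A difference between the forms was not tested, and the short form lies near the lower limit of the tables. ZC3HAV1-203 (1024 residues) and ZC3HAV1-202 (incomplete coding sequence) are also listed, at low levels. For both, every shALKBH3 library lay above every NC library. Neither passed (log2 0.27 and 0.67, limma adjusted p = 0.69 and 0.62).

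Of 12 tested genes in the list of ZC3HAV1 cofactors and related genes 3 rose and 0 fell, with a median log2 difference of 0.15. Over all tested genes 1.28% rose and 0.477% fell. In this list 3 genes had every shALKBH3 library above every NC library and 3 had every one below. Over all tested genes these shares were 12.9% and 12%. TRIM25, a ubiquitin ligase that ZC3HAV1 needs for its antiviral effect, was at 43.9, 37.5 and 40.5 FPKM in shALKBH3, against 27.5, 27.6 and 28.95 FPKM in NC (log2 0.52, limma adjusted p = 0.047). N4BP1, an RNA endonuclease gene, was at 11.0, 11.0 and 10.8 FPKM in shALKBH3, against 7.14, 7.17 and 7.25 FPKM in NC (log2 0.54, adjusted p = 0.034). OASL, an interferon-induced relative of the 2-5A synthetases without their activity, was at 9.50, 9.15 and 10.0 FPKM in shALKBH3, against 2.61, 2.23 and 2.80 FPKM in NC (log2 1.58, adjusted p = 0.0030). In all 3 the groups do not overlap, and only OASL kept its call when libraries were left out, where TRIM25 had adjusted p-values from 0.097 to 0.18 and N4BP1 from 0.081 to 0.15. KHNYN, which encodes a nuclease that works with ZC3HAV1, did not pass (log2 -0.09, limma adjusted p = 0.63). Every knockdown library lay below every control for KHNYN, ZC3H12A (log2 -0.30, limma adjusted p = 0.29) and DHX30 (log2 -0.26, adjusted p = 0.36). Before adjustment ZC3H12A had a limma p of 0.048.

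PARP10 (ENSG00000178685, chromosome 8), which attaches single ADP-ribose units, was at 3.67, 2.52 and 3.30 FPKM in shALKBH3 replicates 1, 2 and 3, against 1.55, 1.18 and 1.94 FPKM in NC replicates 1, 2 and 3. All knockdown libraries are above all controls at low levels, with means of 3.16 ± 0.587 FPKM in shALKBH3 and 1.56 ± 0.383 FPKM in NC (SD, 3 libraries each). It did not pass (log2 0.70, 95% interval 0.28 to 1.12, limma adjusted p = 0.13). With correction for transcript length and GC it passed, at a log2 difference of 0.88 (adjusted p = 0.031). Its 2 listed transcripts traded places between libraries: PARP10-201 made up between 2.44% and 69.5% of the gene sum in shALKBH3 and between 25.7% and 90.4% in NC. The division of fragments between them is therefore uncertain, and the gene sum is the value to read.

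PARP12 (ENSG00000059378, chromosome 7), which also attaches single ADP-ribose units, was at 2.85, 2.14 and 1.86 FPKM in shALKBH3 replicates 1, 2 and 3, against 2.15, 0.959 and 1.24 FPKM in NC replicates 1, 2 and 3. NC replicate 1 lies among the knockdown libraries, so the groups overlap. The log2 difference was 0.44 (95% interval -0.09 to 0.97, limma adjusted p = 0.36). The value rests on PARP12-206 alone, a transcript of 535 nucleotides that GENCODE marks as having an incomplete coding sequence. No full-length PARP12 transcript is among the listed transcripts matched to GENCODE, so the level of the gene as a whole is not known from these values.

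PARP4 (ENSG00000102699, chromosome 13), the vault-associated family member, was at 35.4, 42.6 and 39.3 FPKM in shALKBH3 replicates 1, 2 and 3, against 25.5, 30.1 and 21.4 FPKM in NC replicates 1, 2 and 3. The groups do not overlap, with 39.1 ± 3.59 FPKM in shALKBH3 and 25.7 ± 4.38 FPKM in NC (SD, 3 libraries each). PARP4 did not pass (log2 0.60, 95% interval 0.26 to 0.94, limma adjusted p = 0.12).

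**Figure D3:**
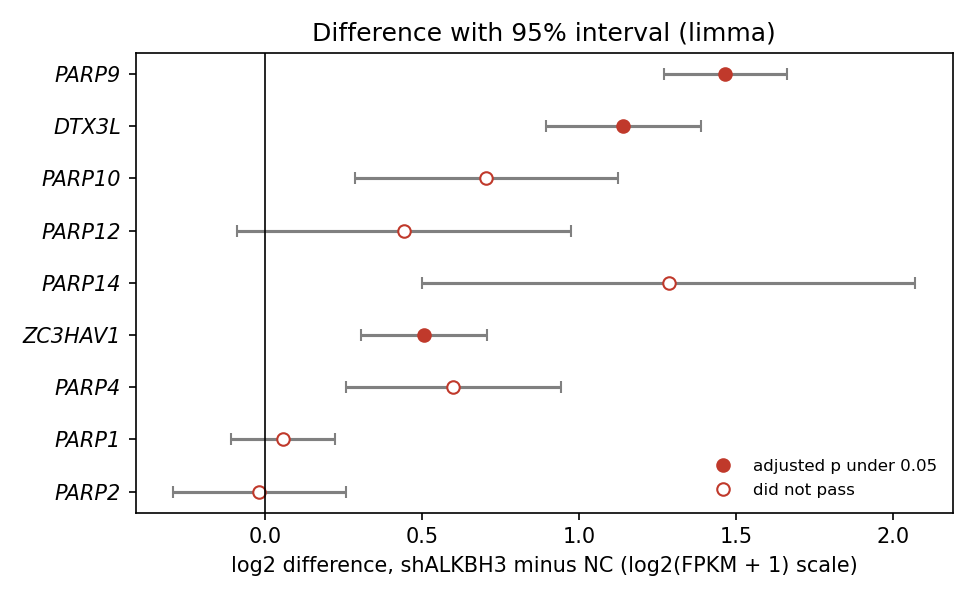
Log2 differences, shALKBH3 minus NC, with 95% intervals from limma; filled points passed the adjusted p threshold of 0.05 and open points did not. PARP9, DTX3L and ZC3HAV1 are filled, PARP14 has the widest interval (0.50 to 2.07), and the intervals of PARP12, PARP1 and PARP2 include 0.

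PARP1 (ENSG00000143799, chromosome 1), the main DNA break sensor of the family, was at 33.0, 31.7 and 31.6 FPKM in shALKBH3 replicates 1, 2 and 3, against 30.1, 31.1 and 31.3 FPKM in NC replicates 1, 2 and 3. The libraries do not overlap, as for 12.9% of all tested genes in that direction, and the mean was 3.99% higher in shALKBH3. The log2 difference was 0.05, with a 95% interval of -0.11 to 0.22 (limma adjusted p = 0.71). PARP2 (ENSG00000129484, chromosome 14), its closest relative, was at 11.8, 15.6 and 13.6 FPKM in shALKBH3 replicates 1, 2 and 3, against 13.8, 14.0 and 13.6 FPKM in NC replicates 1, 2 and 3. The knockdown libraries lie on both sides of the controls, and the 95% interval of the log2 difference was -0.30 to 0.26 (adjusted p = 0.94). In limma 0 of these 2 genes passed and 0 had an unadjusted p under 0.05. Reads of the 3 listed PARP2 transcripts were divided differently from library to library, with PARP2-202 between 51.3% and 87.7% of the sum in shALKBH3 and between 41.4% and 87.7% in NC.

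Each gene was also set against PARP1 in the same library, as the log2 ratio of FPKM + 1, in which the scaling of the library largely cancels. The log2 ratio of PARP9 to PARP1 was 1.32, 1.35 and 1.47 in shALKBH3 replicates 1, 2 and 3, against 0.015, 0.044 and -0.15 in NC replicates 1, 2 and 3. PARP9 was above PARP1 in each knockdown library and at a like level in the controls. For DTX3L the ratio was 0.53, 0.62 and 0.58 in shALKBH3, against -0.46, -0.36 and -0.71 in NC, and for ZC3HAV1 it was 0.018, 0.21 and 0.21 in shALKBH3, against -0.35, -0.24 and -0.33 in NC. Both genes were above PARP1 in each knockdown library and below it in each control. PARP4 had the same pattern, with mean ratios of 0.27 in shALKBH3 and -0.27 in NC. PARP14 had mean ratios of -0.36 in shALKBH3 and -1.59 in NC, and was above PARP1 in shALKBH3 replicate 1 only (0.26). Of the 8 ratios compared, including that of DTX3L to PARP9, 7 had an exact two-sided permutation p of 0.10, the smallest possible, and that of PARP12 to PARP1 had p = 0.30. PARP1 itself differed little (log2 0.05), so the ratios to it largely repeat the separations of the single genes and are not further evidence. In FPKM, 12.9% of all tested genes were separated as higher and 12% as lower, and a share over all genes was not computed for ratios.

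**Figure D4:**
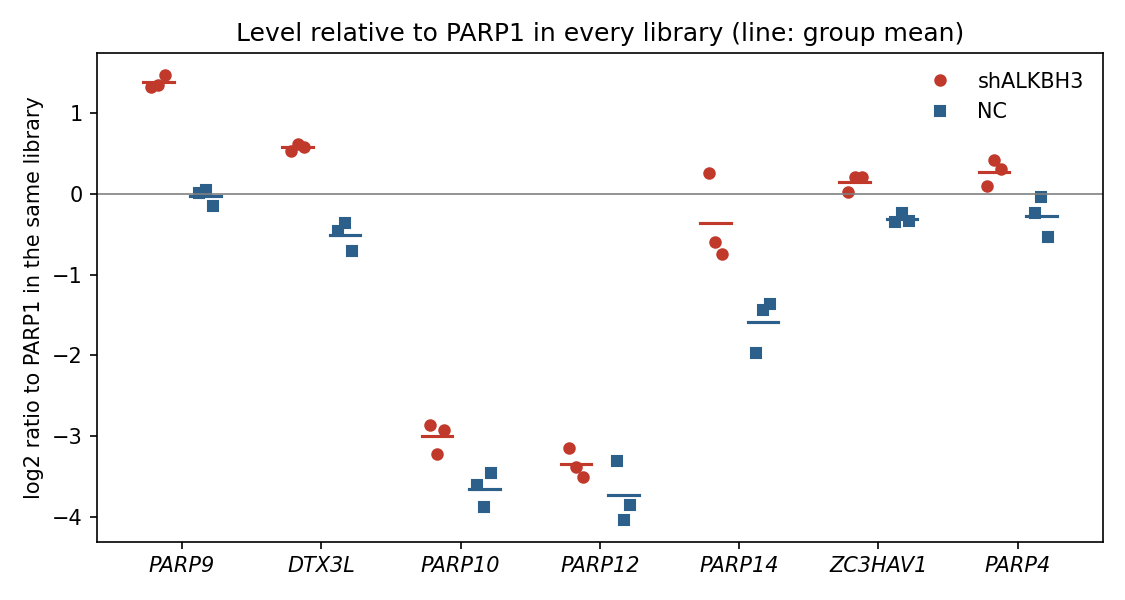
Log2 ratio of each gene to PARP1 within a library, for the 3 shALKBH3 libraries (red circles, left) and the 3 NC libraries (blue squares, right), with lines at the group means. The horizontal line at 0 is the PARP1 level. PARP9 lies at 1.32 to 1.47 in shALKBH3 and between -0.15 and 0.044 in NC, and PARP12 is the gene whose groups overlap.

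The order of FPKM levels differed between the groups. In shALKBH3 the order of means was PARP9, DTX3L, PARP4, ZC3HAV1, PARP1, PARP14, PARP2, PARP10 and PARP12. The ranges of neighbours overlapped for PARP4 and ZC3HAV1, for PARP1 and PARP14 and for PARP10 and PARP12, and PARP9 and DTX3L stood apart from each other and from the rest. In NC the order was PARP1, PARP9, PARP4, ZC3HAV1, DTX3L, PARP2, PARP14, PARP10 and PARP12. There the ranges of each neighbouring pair from PARP1 down to DTX3L overlapped, as did those of PARP10 and PARP12, while PARP2 and PARP14 were separate. PARP9 was the most abundant of the 9 in the knockdown, at 85.1 FPKM, and shared the level of PARP1 in controls, 30.2 and 30.9 FPKM. The place of PARP12 rests on PARP12-206 alone, which has an incomplete coding sequence.

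**Figure D5:**
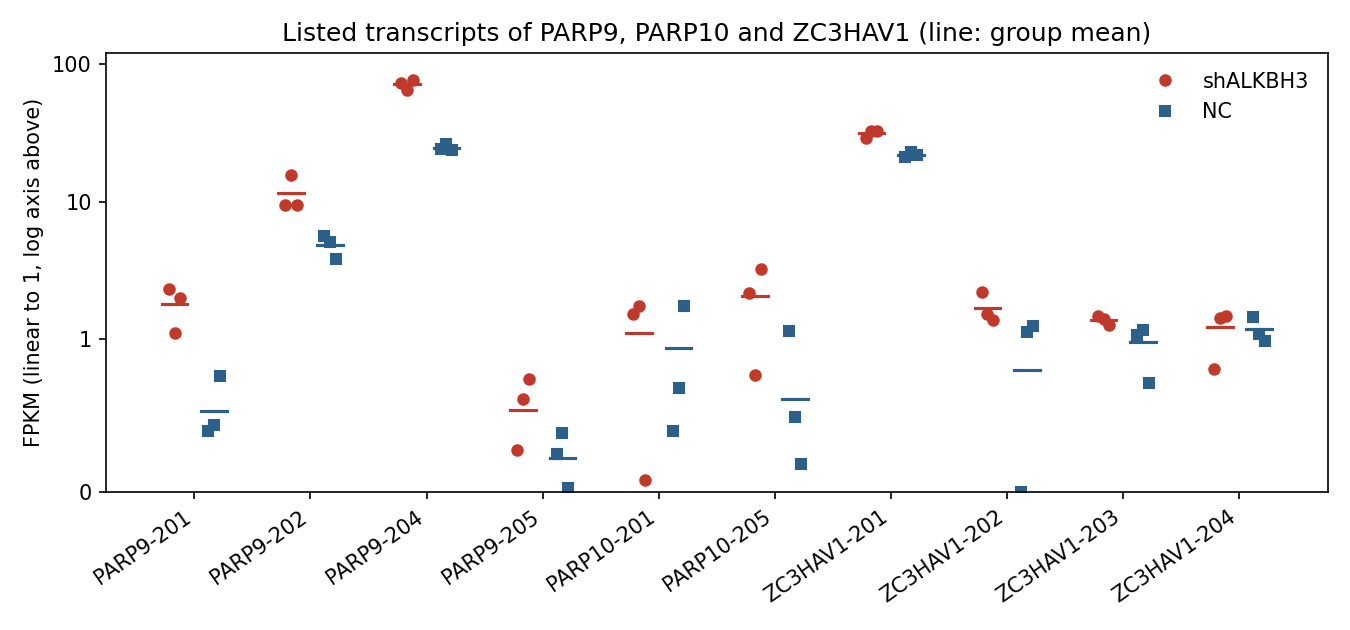
FPKM of every listed transcript of PARP9, PARP10 and ZC3HAV1 (linear to 1, log axis above) in shALKBH3 (red circles, left) and NC (blue squares, right), with lines at the group means. PARP9-204 and ZC3HAV1-201 carry most of their genes' signal, and the 2 PARP10 transcripts overlap between the groups.

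The 3 genes on chromosome 3 lie in one cluster in RefSeq order, PARP9, DTX3L, PARP15 and PARP14, with KPNA1 before it and HSPBAP1 after it. These neighbours were picked by position after the values above had been seen. PARP15 has no listed transcript. KPNA1 was at 9.19 FPKM in shALKBH3 and 8.24 FPKM in NC on average (log2 0.18, limma adjusted p = 0.78), and HSPBAP1 at 1.81 FPKM in shALKBH3 and 2.20 FPKM in NC (log2 -0.19, adjusted p = 0.63). The flanking genes thus had small differences that did not pass, beside the larger values of the cluster. ZC3HAV1 and PARP12 share chromosome 7 with 9 protein-coding genes between them, and ZC3HAV1L, the paralog next to ZC3HAV1, was at 3.50 FPKM in shALKBH3 and 2.27 FPKM in NC (log2 0.46, adjusted p = 0.25).

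With all 6 libraries, 0 of the tested genes in the other ADP-ribose lists passed the threshold. Among 8 tested PARP family genes outside the set, limma called 0, and their median log2 difference was 0.09; 1 was higher at unadjusted p under 0.05. TNKS2, a tankyrase, was at 17.4, 19.5 and 19.7 FPKM in shALKBH3, against 14.7, 15.5 and 12.8 FPKM in NC (log2 0.37, adjusted p = 0.17), and PARP8 had a log2 difference of 0.61 (adjusted p = 0.29). Of 6 tested genes that remove ADP-ribose 0 were called and 0 had an unadjusted p under 0.05, with a median of -0.02; NUDT9 had 0.19 (adjusted p = 0.52) and MACROD1 -0.15 (adjusted p = 0.59). Of 10 tested readers and PARP1 partners 0 were called and 1 had an unadjusted p under 0.05, with a median of 0.23. That one was RNF146, a ubiquitin ligase that recognises poly(ADP-ribose), at 11.1, 13.9 and 14.9 FPKM in shALKBH3, against 3.11, 12.1 and 4.52 FPKM in NC (log2 1.09, adjusted p = 0.27), where NC replicate 2 lies within the knockdown range. Without NC replicate 2 RNF146 passed (log2 1.58, limma adjusted p = 0.042). POLB, the base excision repair polymerase gene, had 0.62 (adjusted p = 0.34).

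Of 6 tested genes of NAD supply limma called 0, and 0 had an unadjusted p under 0.05, with a median log2 difference of 0.03. NMNAT2 had 0.24 (adjusted p = 0.31) and NMRK1 0.18 (adjusted p = 0.38). DTX2 and DTX3, the tested relatives of DTX3L, had log2 differences of -0.28 and 0.01 (adjusted p = 0.51 and 0.98), with 0 of 2 called and 0 at an unadjusted p under 0.05. DTX1 and DTX4 have no listed transcript. Among the tested genes of its family DTX3L alone passed, though a difference between it and its relatives was not tested.

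IRF2, which binds ISRE-type sites, was at 22.2, 24.7 and 24.6 FPKM in shALKBH3, against 15.8, 15.0 and 14.4 FPKM in NC (log2 0.63, limma adjusted p = 0.028), and had adjusted p-values from 0.059 to 0.14 with a library left out. The groups do not overlap for IRF2, and its call rests on all 6 libraries being in the fit. IRF2 is from the list of interferon signal and transcription genes, of which 12 were tested. In that list 5 genes had every shALKBH3 library above every NC library and 2 had every one below. Over all tested genes these shares were 12.9% and 12%. A part of IRF2 in the values above was not tested.

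The 5 genes outside the set whose profiles over the 6 libraries were nearest to the mean profile of PARP9, DTX3L, PARP10, PARP12, PARP14 and ZC3HAV1 were UBE2L6, HIST2H2AA3, PLEKHA4, C3AR1 and TRIM14. PARP4 was left out of that mean profile. Nearness is the root mean square distance of log2 values after each gene's own mean is taken away, and it ran from 0.061 for UBE2L6 to 0.088 for TRIM14. The 6 genes themselves lay farther from their mean, from 0.17 for DTX3L to 0.37 for PARP14. PARP4 lay within that range at 0.26, PARP1 at 0.44 and PARP2 at 0.51. UBE2L6 was at 151, 142 and 145 FPKM in shALKBH3, against 72.1, 74.9 and 75.4 FPKM in NC. Because the mean profile is higher in shALKBH3, genes chosen as near to it are higher there by the choice. HIST2H2AA3 has a near-identical copy, so its value is uncertain.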

How the data were processed

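The authors deposited FPKM per transcript for 6 libraries, per the file headers. Per the labels' protocols, total RNA was fragmented and random-primed, with dUTP in the second strand. The submitters' processing notes name hg19, HTSeq 0.6.0 and DESeq2 with no role; which tool and annotation gave the transcript FPKM is not given in the sources here. In each of the 28900 listed transcripts the higher group mean is at least 0.5 FPKM. Values reach down to 1e-06 FPKM, less than 1 whole read could be worth, and depth is unknown.

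Transcripts were matched without version to GENCODE 29 (28796, or 99.6%) and summed to genes. Genes averaging 1 FPKM or more were tested on log2(FPKM + 1) with limma 3.58.1 in R 4.3.3 (variance trend, two-sided). Tables and ratios used Python 3.11.15, pandas 2.3.3 and scipy 1.17.1, and the length and GC correction mgcv. Alternatives were other pseudocounts, filters and scalings, the most abundant transcript, that correction, a replicate block and leaving out each library.

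The members and lists were chosen with earlier results of these data known. Named genes were the 9 members, ALKBH3 and the 5 nearest profiles. List genes were named if past the threshold, or else the 2 with the smallest adjusted p. KHNYN, ZC3H12A, DHX30, the unlisted DTX genes, markers and neighbours were named after their values were seen. One result of the interferon signal list is not reported here.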

Additional observations from a re-analysis of the deposited data

How the results depend on the processing

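PARP9 kept its call under all 15 alternatives (log2 1.41 to 1.51) and DTX3L under 14 of 15. ZC3HAV1 kept it under 5 of 15, with adjusted p-values from 0.037 to 0.19 and every log2 difference positive. PARP4, PARP12 and PARP14 passed under none of theirs, and PARP10 under 1. Leaving out each library in turn gave 48 to 109 genes, 39 to 84 transcripts, 2 interferon-linked genes, 1 to 2 transcripts of the 9 genes and 2 to 3 pathway genes called, against 184, 93, 3, 2 and 5. With the most abundant transcript of each gene 105 genes and 2 pathway genes were called, and with the length and GC correction 251 genes and 3 pathway genes. The labels do not say whether replicate numbers pair the libraries. Deviations of same-numbered libraries from their group means correlated at -0.09, 0.08 and -0.01. These values show no shared shift over all genes and cannot exclude pairing. With the replicate number as a block limma called 20 genes, 1 interferon-linked gene (PARP9, adjusted p = 0.044; DTX3L 0.060), 2 pathway genes, 0 transcripts and 0 transcripts of the 9 genes, while unadjusted p-values under 0.05 numbered 763 (higher) and 741 (lower) over all transcripts and 7 and 0 over those of the 9 genes. ALKBH3 also lost its call with the block (log2 -1.24, adjusted p = 0.098). Without NC replicate 2, RNF146 was called. The sign of PARP2 turned with the most abundant transcript (0.061) and without shALKBH3 replicate 1 (0.075, in a range of -0.112 to 0.075 with a library left out), and that of PARP1 with the length and GC correction (-0.0084). The cause of these differences was not tested. A minimum mean of 5 FPKM left PARP10 and PARP12 untested. The 8 ratios kept their sign under each alternative run.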
